A study of Oncorhynchus mykiss with 38 samples.

Results

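A sperm flagellum grows from one of the centrioles of the spermatid, which becomes its basal body. Its axoneme is built with the help of intraflagellar transport, in which protein complexes carry cargo along the microtubules and back. In animals with seasonal reproduction, such as the rainbow trout, many germ cells pass through meiosis and spermiogenesis together. Txndc6, cetn4, ift122 and spata4 were examined here in rainbow trout testis. Txndc6 is a thioredoxin domain protein found in cilia and flagella of mammals, and cetn4 is a centrin, a calcium-binding protein of centrioles and basal bodies. The product of ift122 is a subunit of the intraflagellar transport complex that returns cargo to the cell body, and spata4 is a spermatogenesis-associated gene named for its expression in mammalian testis.

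These 4 genes were taken by name and by clone, with earlier results of these data known. The shares over all clones given below are therefore a background and not a test of these genes. They were represented by 5 cDNA clones of the 9024 clones with values on the array: tcaa0002.a.02 for Txndc6, 1rt139b09_b_a05 for cetn4, 1rt32a14_c_a07 and tcay0011.m.23 for ift122, and tcay0023.o.02 for spata4. The name Txndc6 came from the clone list of the study's methods, the other 3 from the platform annotation. All 5 clones had a value on each of the 38 arrays. A search of the platform symbols for dyneins, tektins, radial spoke, intraflagellar transport, centriole and tubulin genes found only cetn4, ift122 and spata4, on 4 clones. Clones without a platform symbol were not searched. No clone sequence was used here.

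Nylon cDNA arrays were hybridized with RNA of whole testes at 6 stages of the cycle and of 3 germ cell fractions. The testes were at Stage I (5 samples, type A spermatogonia), Stages IIa and IIb (4 samples each, with few or more type B spermatogonia), Stage IIIb (3 samples, spermatocytes present), Stage V (4 samples, spermatids present) and Stage VIII (3 samples, spawning testes with mature sperm). The fractions were enriched in Spermatogonia (6 samples), Spermatocytes (6 samples) and Spermatids (3 samples). They came from pooled testes and were enriched rather than pure, and nothing states which samples of a group came from separate animals, so p-values measure only the spread between these samples. By the paper's methods Spermatogonia were isolated from immature fish and Spermatocytes from mature gonads. Cell type and maturity of the donors therefore cannot be told apart between these fractions. The donors of the Spermatids are not named separately. All samples were from males, and no agent or allele is given for any group.

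Values are log2 signals after quantile normalization, and the median of every array was 8.17, which serves here as a mark of low signal. A difference from a group that lies under this mark is measured against low signal, and its size is given both as measured and, for the main steps, with each signal below its array's median set to that median. Changes are differences of log2 signal, so that 1 unit is a doubling. In bulk samples fewer cells of a type and less RNA per cell cannot be told apart. Among the marker genes with a clone, sycp3, a protein of the meiotic chromosome axis, averaged 9.74 ± 0.40 in Spermatogonia, 10.46 ± 0.65 in Spermatocytes and 11.13 ± 0.83 in Spermatids (SD, n = 6, 6 and 3), no lower there than in Spermatocytes. The germ cell RNA helicase gene ddx4 averaged 12.17 ± 0.33, 11.29 ± 0.18 and 11.03 ± 0.61 in the same order. Among the platform symbols no marker of elongated spermatids or sperm was found. From Spermatocytes to Spermatids sycp3 differed by 0.68 (adjusted p = 0.576 by limma) and ddx4 by -0.26 (adjusted p = 0.783). Over all arrays neither separated these fractions by this test, so the label of the Spermatids fraction could not be checked here. By single arrays sycp3 was 11.51 and 11.72 in Spermatids replicates 1 and 3, above the highest Spermatocytes array at 11.33. In Spermatids replicate 2 it was 10.18, within the range of Spermatocytes. The paper describes the Spermatids fraction as mostly post-meiotic cells. Spermatids replicate 2 stood apart from the 2 other Spermatids arrays. Its mean correlation with them after each clone was centred was 0.06, against 0.28 and 0.30 for the others. By another measure replicate 3 was the least typical of the group. Its highest correlation with any array was 0.86, against 0.92 and 0.93 for replicates 1 and 2. For Txndc6, cetn4, ift122 and spata4 the differences of Spermatids from Spermatogonia and from Spermatocytes are given with and without replicate 2.

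All 5 clones varied over the 9 groups by limma's F-test, with adjusted p of 2.91e-13 for cetn4, 6.21e-11 for Txndc6, 4.05e-10 and 1.89e-09 for the ift122 clones and 8.46e-06 for spata4. Of all clones 44.2% passed the same threshold of 0.005. By the size of F, cetn4 was number 92, Txndc6 number 276, the ift122 clones numbers 397 and 513 and spata4 number 1649 of the 9024. With sample labels permuted 100000 times, p was 1e-05, the smallest these permutations can give, for the Txndc6, cetn4 and ift122 clones and 6e-05 for spata4.

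**Figure D1:**
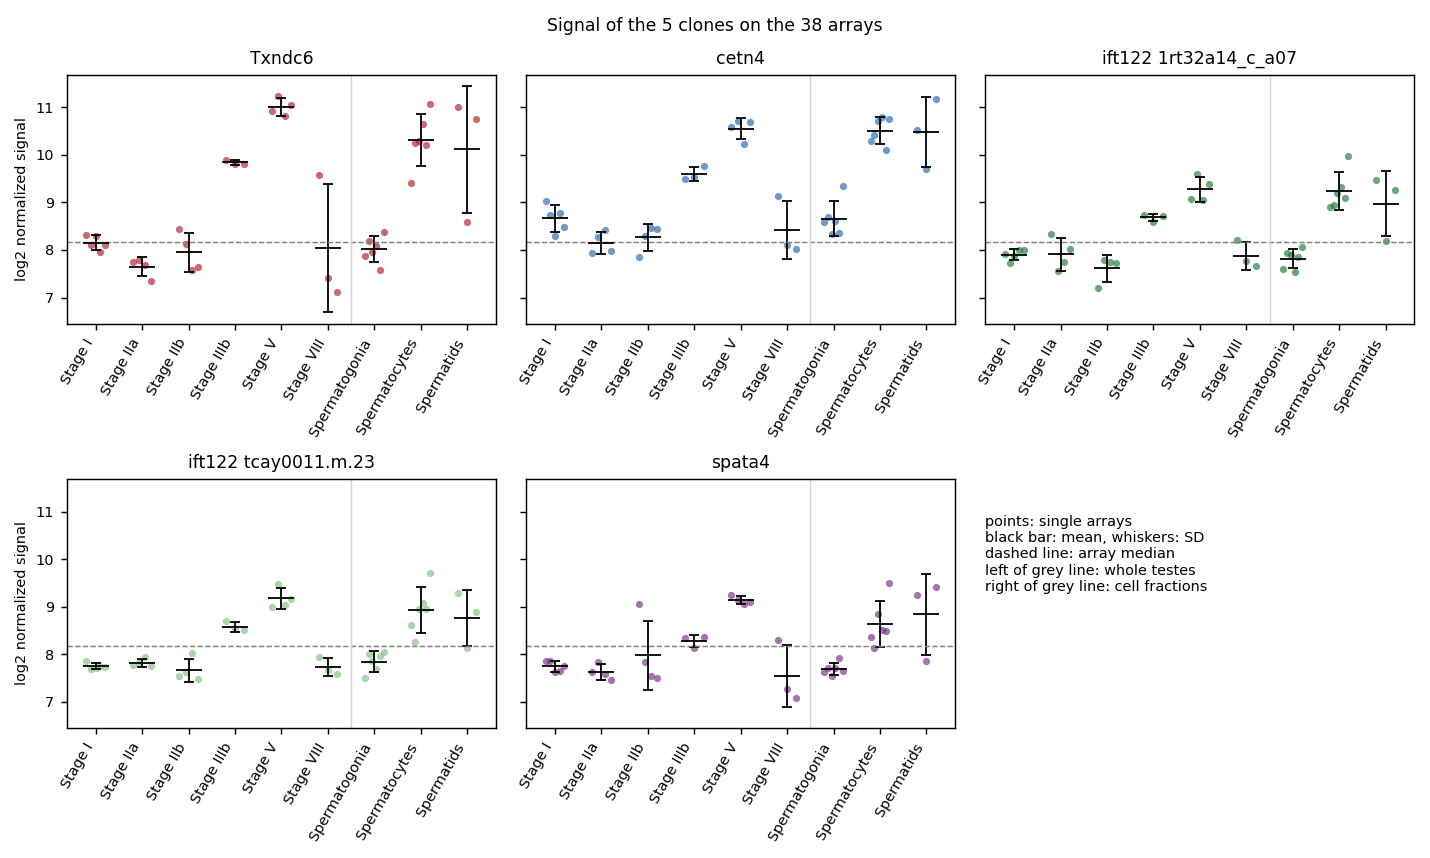
Log2 normalized signal (vertical axis) of the 5 clones in the 6 testis stages and 3 germ cell fractions (horizontal axis), with 1 point per array, the mean as a bar, the SD as whiskers and the array median of 8.17 as a dashed line. Every Stage V array lies above every array of Stages I, IIa and IIb for all 5 clones, and for Txndc6 the spread is widest at Stage VIII and in Spermatids.

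Txndc6 spanned the widest range of the 4 genes. In the immature testes its signals were 8.31, 8.11, 8.30, 7.95 and 8.11 at Stage I, then 7.74, 7.80, 7.69 and 7.36 at Stage IIa, and 8.45, 8.13, 7.59 and 7.64 at Stage IIb. At these stages 3 of 13 arrays lay above the array median. The signals were 9.90, 9.82 and 9.82 at Stage IIIb and 10.92, 11.24, 10.83 and 11.04 at Stage V, and every array of Stage V lay above every array of Stage IIIb, which in turn lay above all immature testes. In spawning testes, Stage VIII, they were 9.59, 7.41 and 7.12, so that 1 array was well above the other 2. Spermatogonia ranged from 7.59 to 8.38 with a median of 8.02, and Spermatocytes from 9.41 to 11.08 with a median of 10.28. Spermatids had 11.01, 8.59 and 10.77, and their lowest value, replicate 2, lay below every Spermatocytes array but above every Spermatogonia array.

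Cetn4 had the same upper and lower groups with a narrower range. Its signals were 9.04, 8.74, 8.30, 8.77 and 8.49 at Stage I, 7.94, 8.27, 8.43 and 7.98 at Stage IIa and 7.86, 8.29, 8.47 and 8.44 at Stage IIb. Unlike the other clones it was above the array median on all 5 Stage I arrays. At Stage IIIb it had 9.49, 9.54 and 9.77, at Stage V 10.58, 10.72, 10.24 and 10.69, and at Stage VIII 9.13, 8.12 and 8.02. The Stage VIII arrays all lay below those of Stage IIIb, and replicate 1 was again the highest of them. Spermatogonia ranged from 8.34 to 9.35 with a median of 8.61, Spermatocytes from 10.10 to 10.81 with a median of 10.56, and Spermatids had 10.53, 9.71 and 11.19. Every Spermatocytes and Spermatids array lay above every Spermatogonia array.

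Ift122 was measured by both clones in the same direction at each step that passed the test. Clone 1rt32a14_c_a07 gave 7.91, 7.73, 7.87, 8.0 and 7.99 at Stage I, 8.34, 7.55, 7.74 and 8.02 at Stage IIa and 7.20, 7.80, 7.74 and 7.72 at Stage IIb. Only 1 of these 13 arrays, at Stage IIa, was above the array median. It gave 8.74, 8.59 and 8.72 at Stage IIIb, 9.08, 9.60, 9.05 and 9.38 at Stage V and 8.20, 7.76 and 7.66 at Stage VIII. Spermatogonia ranged from 7.55 to 8.06 with a median of 7.87, Spermatocytes from 8.91 to 9.99 with a median of 9.15, and Spermatids had 9.46, 8.20 and 9.27. The Spermatocytes arrays were all above the Spermatogonia arrays, and Spermatids replicate 2 lay just above the highest of these.

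Clone tcay0011.m.23 of ift122 gave 7.87, 7.68, 7.72, 7.76 and 7.73 at Stage I, 7.77, 7.81, 7.94 and 7.76 at Stage IIa and 7.54, 7.62, 8.02 and 7.49 at Stage IIb. None of these 13 signals was above the array median. It gave 8.70, 8.53 and 8.51 at Stage IIIb, 9.0, 9.48, 9.05 and 9.17 at Stage V and 7.95, 7.66 and 7.59 at Stage VIII. Spermatogonia ranged from 7.49 to 8.06 with a median of 7.91, Spermatocytes from 8.26 to 9.70 with a median of 8.95, and Spermatids had 9.30, 8.13 and 8.88. Here too the Spermatogonia arrays lay below all Spermatocytes and Spermatids arrays.

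Spata4 was below the array median on most arrays of the early stages. Its signals were 7.86, 7.86, 7.62, 7.64 and 7.76 at Stage I, 7.63, 7.84, 7.58 and 7.46 at Stage IIa and 9.05, 7.83, 7.54 and 7.51 at Stage IIb. Replicate 1 of Stage IIb was above all other immature testes and above every Stage IIIb array. Stage IIIb had 8.35, 8.14 and 8.35, Stage V 9.25, 9.13, 9.07 and 9.09, and Stage VIII 8.30, 7.26 and 7.07. Spermatogonia ranged from 7.55 to 7.92 with a median of 7.68, Spermatocytes from 8.14 to 9.51 with a median of 8.50, and Spermatids had 9.25, 7.85 and 9.41. The Spermatocytes arrays lay above the Spermatogonia arrays, while the lowest Spermatids array, replicate 2, lay within their range.

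Set in order of their means, the groups fell into the same upper and lower sets for every clone. Stage V was highest, Spermatocytes, Spermatids and Stage IIIb followed (with Spermatids above Spermatocytes for spata4), and Stages I, IIa, IIb and VIII with Spermatogonia had the 5 lowest means. For Txndc6 the upper means lay between 9.85 and 11.01 and the lower ones between 7.65 and 8.16, and for cetn4 between 9.60 and 10.56 and between 8.16 and 8.67. The step down from Stage IIIb to the next group was 1.69 for Txndc6 (adjusted p = 0.00216), 0.93 for cetn4 (adjusted p = 0.00828), 0.77 for ift122 clone 1rt32a14_c_a07 (adjusted p = 0.022) and 0.74 for clone tcay0011.m.23 (adjusted p = 0.0181). No other neighbours in these 4 orders differed beyond their spread, and for spata4 no neighbours did. Of the 20 pairs formed by 1 upper and 1 lower group, all 20 passed the test for Txndc6, cetn4 and both ift122 clones and 15 for spata4. Within the upper and the lower set only 1 pair, for cetn4, passed. The sets were formed from the means themselves, and these counts only describe them.

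At Stage IIIb, when spermatocytes have become numerous, relative to Stage IIb, Txndc6, cetn4 and both ift122 clones rose. Txndc6 averaged 9.85 ± 0.05 at Stage IIIb and 7.95 ± 0.41 at Stage IIb (SD, n = 3 and 4), a difference of 1.89 (SE 0.41, adjusted p = 0.00345). Cetn4 rose by 1.33 (SE 0.26, adjusted p = 0.00152), and the ift122 clones by 1.07 (SE 0.24, adjusted p = 0.00398) and 0.91 (SE 0.22, adjusted p = 0.00886). For cetn4, above the array median on 3 of 4 Stage IIb arrays, this is 2.52-fold. Of all clones 3.92% were called higher, and 11.8% had every Stage IIIb array above every Stage IIb array, as these 4 clones did. Spata4 averaged 8.28 ± 0.12 at Stage IIIb and 7.98 ± 0.73 at Stage IIb, a difference of 0.30 with a 95% interval of -0.32 to 0.92 (adjusted p = 0.671), and its groups overlapped. Without Stage IIb replicate 1 the spata4 difference was 0.66 (adjusted p = 0.176). With array weights it was 0.51 and was called (adjusted p = 0.0322 by limma), as were 2005 of all clones in either direction. With low signals set to the median of their array the spata4 difference was -0.10. When every signal below its array's median was set to that median, the ift122 differences were 0.52 (adjusted p = 0.137) and 0.41 (adjusted p = 0.306), and without Stage IIIb replicate 1 clone tcay0011.m.23 had 0.85 (adjusted p = 0.0517). Txndc6 and cetn4 with low signals so set had 1.61 and 1.26. Over all clones 635 were called in either direction, and 313, 227 and 349 without Stage IIIb replicate 1, 2 and 3. Over the same step sycp3 rose, and 3 of 3 Leydig cell clones (star, cyp17a1 and hsd3b1) fell by 1.10 to 1.18. Of the other markers 1 of 3 Sertoli cell, 1 of 3 matrix, 1 of 2 spermatogonial and 0 of 4 red blood cell clones fell, and none rose. The part of a changing cell mixture was not tested.

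The next step, Stage V against Stage IIIb, gave no call. The 5 differences were 1.16 for Txndc6, 0.96 for cetn4, 0.59 for both ift122 clones and 0.85 for spata4, and every Stage V array was above every Stage IIIb array in all 5, as in 7.37% of all clones. By limma 0 of 9024 clones passed the adjusted threshold, or 0%. At an unadjusted p under 0.05, 478 clones passed, of which 359 were higher (3.98% of all), and the 5 clones were among these with p of 0.00728 for Txndc6, 0.000882 for cetn4, 0.0165 and 0.0109 for ift122 and 0.0084 for spata4. Their adjusted p lay between 0.223 and 0.641. With array weights all 5 clones passed, with adjusted p between 0.000105 and 0.00143, while 555 of 9024 clones did in either direction. With only these groups in the fit 3 passed, Txndc6, cetn4 and spata4, with adjusted p of 0.00779, 0.0118 and 0.00812. In that fit 151 of 8855 clones passed in either direction.

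Over the whole rise, Stage V against Stage I, all 5 clones were higher, as were 15.2% of all clones, and all 5 had no overlap, as had 15.9%. Txndc6 averaged 11.01 ± 0.18 at Stage V and 8.16 ± 0.15 at Stage I (SD, n = 4 and 5), a difference of 2.85 (SE 0.36, adjusted p = 1.33e-07). Cetn4 rose by 1.89 (SE 0.23, adjusted p = 8.61e-08), or 3.71-fold, from signals above the array median on all Stage I arrays. Ift122 rose by 1.37 (SE 0.21, adjusted p = 2.78e-06) and 1.42 (SE 0.19, adjusted p = 5.72e-07), and spata4 by 1.39 (SE 0.27, adjusted p = 0.000116). Their median change was 1.42, against -0.04 over all clones. With low signals set to the median of their array the differences were 2.79 for Txndc6, 1.11 and 1.01 for ift122 and 0.97 for spata4. Over the same interval 3 of 3 Leydig cell, 2 of 3 Sertoli cell, 3 of 4 red blood cell and 2 of 3 matrix clones fell, sycp3 rose by 2.16, and of the 2 spermatogonial clones 1 rose and 1 fell. Their part in the result was not tested. Before the rise, Stage IIb against Stage I, none of the 5 was called (0 of 5, against 0.233% of all clones), with differences between -0.40 and 0.23 and a lowest unadjusted p of 0.0928. Both ift122 clones lay under the array median on every array of these stages, so the lack of a call says little on them.

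**Figure D2:**
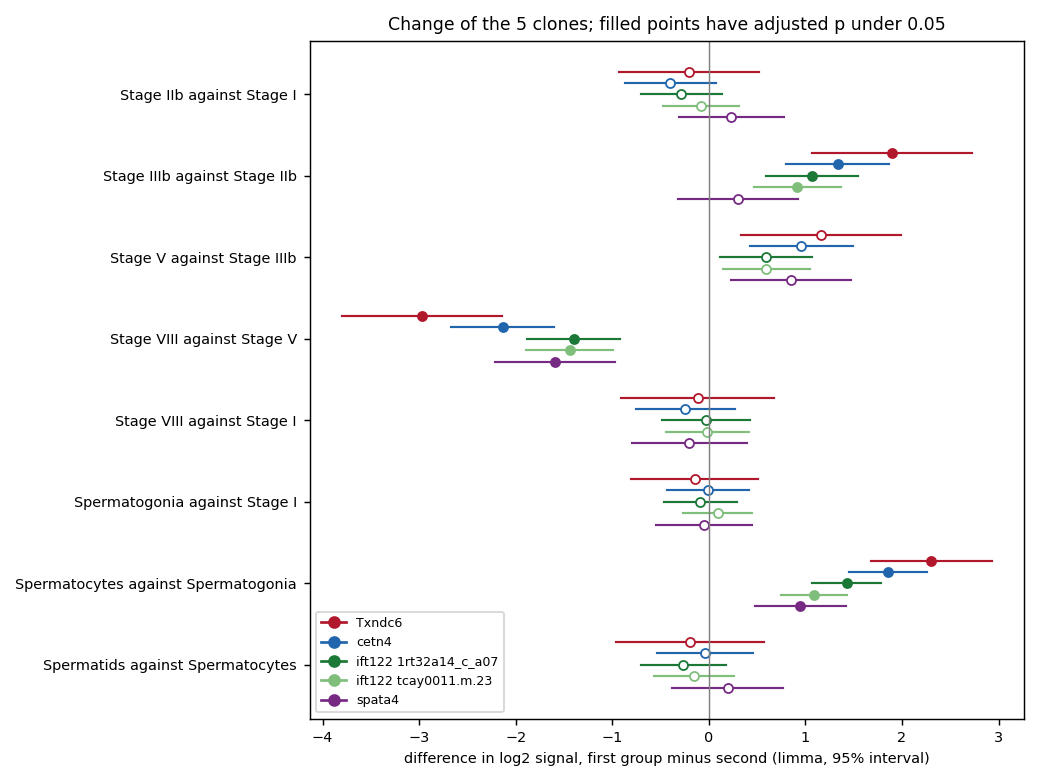
Difference in log2 signal (horizontal axis, first group named minus second) for the 5 clones in 8 comparisons, with the 95% interval of limma as lines and filled points where the adjusted p was under 0.05. Filled points lie right of 0 for Stage IIIb against Stage IIb and Spermatocytes against Spermatogonia and left of 0 for Stage VIII against Stage V.

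In spawning testes all 5 clones fell relative to Stage V. Txndc6 averaged 8.04 ± 1.35 at Stage VIII and 11.01 ± 0.18 at Stage V (SD, n = 3 and 4), a difference of -2.97 (SE 0.41, adjusted p = 4.13e-07). Cetn4 had a difference of -2.14 (SE 0.26, adjusted p = 5.78e-08). The ift122 clones differed by -1.40 (SE 0.24, adjusted p = 1.09e-05) and -1.44 (SE 0.22, adjusted p = 2.59e-06) and spata4 by -1.59 (SE 0.31, adjusted p = 7.92e-05). With low signals set to the median of their array these were -2.37 for Txndc6, -2.07 for cetn4, -1.10 and -1.01 for ift122 and -0.93 for spata4. Of all clones 19.3% were called lower and 25.2% had every Stage VIII array below every Stage V array, as all 5 did. Against Stage I none of the 5 was called at Stage VIII, with differences between -0.25 and -0.02 and a lowest unadjusted p of 0.337, where 24.3% of all clones were called. Most of these signals, except those of cetn4 at Stage I, lay under the array median, which limits what the lack of a call shows. Among the markers of other cells all 3 Leydig cell clones rose by 1.51 to 3.74, all 4 red blood cell clones by 2.15 to 3.64, and 2 of 3 Sertoli cell clones and 2 of 3 matrix clones also rose. The mean of the red blood cell list ranged from 12.34 to 12.41 at Stage VIII and from 8.93 to 9.74 at Stage V. Sycp3 averaged 8.44 ± 0.68 at Stage VIII and 11.33 ± 0.25 at Stage V. The germ cell gene ddx4 fell by 2.35 (adjusted p = 7.84e-11), and piwil2 differed by -0.24 (adjusted p = 0.343). The part of cell composition in the fall was not tested.

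A single Stage VIII array carried much of the spread of that group. Replicate 1 exceeded the mean of the 2 others by 2.32 for Txndc6, a gap that 0.233% of all clones reached on that array. The gap was 1.06 for cetn4, 1.13 for spata4, and 0.49 and 0.33 for the ift122 clones, and 2.15%, 1.82%, 8.85% and 15.6% of all clones reached these. On the same array sycp3 was 9.22, against 7.93 and 8.18 on the other 2, and the Leydig cell list averaged 10.60 against 11.40 and 11.70. The Sertoli cell list was at 9.23 there, against 9.19 and 9.65, and the matrix list at 11.84, against 12.17 and 12.18. The red blood cell list was nearly level, at 12.34 against 12.41 and 12.39. Without this array the difference of Txndc6 from Stage V was -3.74 (adjusted p = 1.39e-09) and that of cetn4 -2.49 (adjusted p = 8.89e-09). Spata4 then had -1.97 (adjusted p = 1.04e-05), and the ift122 clones -1.56 and -1.55. Against Stage I, Txndc6 without this array was at -0.89 (adjusted p = 0.0827).

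**Figure D3:**
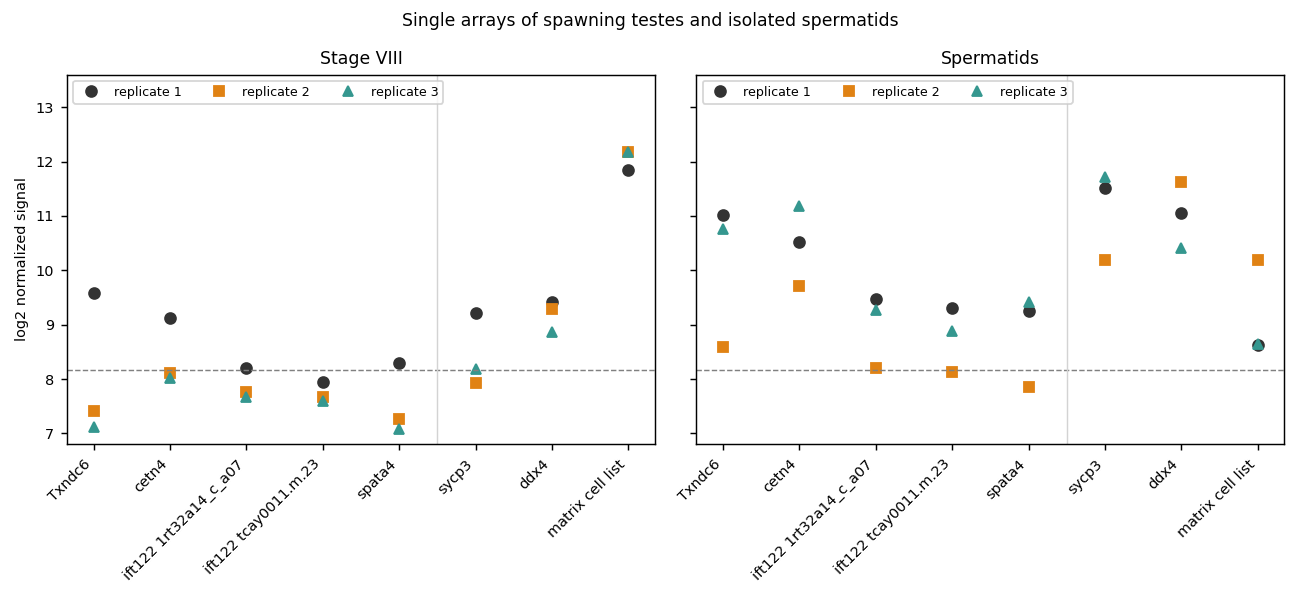
Log2 normalized signal (vertical axis) of the 5 clones, the meiotic marker sycp3, the germ cell marker ddx4 and the mean of the matrix cell list (horizontal axis) on the 3 arrays of Stage VIII (left) and of Spermatids (right), with the array median as a dashed line. Stage VIII replicate 1 (dark circles) is the highest and Spermatids replicate 2 (squares) the lowest of its group for each of the 5 clones.

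Among the isolated cells all 5 clones were higher in Spermatocytes than in Spermatogonia. Txndc6 averaged 10.32 ± 0.55 in Spermatocytes and 8.01 ± 0.27 in Spermatogonia (SD, n = 6 each), a difference of 2.30 (SE 0.31, adjusted p = 7.36e-07). Cetn4 rose by 1.86 (SE 0.20, adjusted p = 3.24e-08), or 3.62-fold. The ift122 clones rose by 1.43 (SE 0.18, adjusted p = 2.41e-07) and 1.09 (SE 0.17, adjusted p = 6.52e-06). Spata4 rose least, by 0.95 (SE 0.23, adjusted p = 0.00213). Of all clones 12% were called higher and 4.15% had every Spermatocytes array above every Spermatogonia array, as all 5 did. When every signal below its array's median was set to that median, spata4 had 0.48 (adjusted p = 0.0539), Txndc6 2.11 and the ift122 clones 1.08 and 0.76. Of the markers, sycp3 rose by 0.72 (adjusted p = 0.0441 by limma). Its signals ran from 9.35 to 10.36 in Spermatogonia and from 9.85 to 11.33 in Spermatocytes, so these groups overlapped. Both ddx4 and piwil2, an RNA-binding protein of early germ cells, fell, and all 4 red blood cell clones fell, by 0.43 to 2.30. Of the Leydig cell clones 0 of 3 were called, at differences of -0.49 to -0.27, and 1 of 3 Sertoli cell and 1 of 3 matrix clones fell. The part of these other cells in the difference was not tested.

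Between Spermatogonia and Stage I testes none of the 5 clones was called, with differences between -0.14 and 0.09 and a lowest unadjusted p of 0.608, where 26.6% of all clones were called. For both ift122 clones and spata4 every array of both groups lay under the array median, so the lack of a call says little on them. Txndc6 was above it on 2 of 6 Spermatogonia and 2 of 5 Stage I arrays, and cetn4 on all. In Spermatids against Spermatogonia all 5 rose, as did 9.74% of all clones. The differences were 2.11 for Txndc6 (SE 0.38, adjusted p = 0.000129), 1.82 for cetn4 (SE 0.24, adjusted p = 7.12e-06), 1.16 and 0.93 for ift122 (adjusted p = 0.000212 and 0.00118) and 1.14 for spata4 (SE 0.28, adjusted p = 0.00365). With low signals set to the median of their array they were 1.92 for Txndc6, 0.81 and 0.62 for ift122 and 0.78 for spata4. Every Spermatids array lay above every Spermatogonia array for 4 of the 5, the exception being spata4, and for 6.17% of all clones. Without Spermatids replicate 3 spata4 had 0.85 (adjusted p = 0.0982), and of all clones 679 rather than 1926 were called in either direction. Sycp3 rose by 1.39, and both spermatogonial markers, 3 of 4 red blood cell, 2 of 3 Leydig cell and 1 of 3 matrix clones fell. Of the 3 Sertoli cell clones 1 rose (sox9, at 0.62) and 1 fell (dmrt1, at -0.65). The part of the cells behind these markers in the result was not tested.

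Spermatids against Spermatocytes gave no call for any of the 5 clones, with limma calling 6 of all clones, 0.0665%, or 289 without Spermatids replicate 2, 30 without replicate 1, and 10 and 3 without Spermatocytes replicates 1 and 4. The differences were -0.19 for Txndc6 with a 95% interval of -0.96 to 0.57, -0.04 for cetn4 (-0.54 to 0.46), -0.27 and -0.16 for ift122 (-0.71 to 0.18 and -0.57 to 0.26) and 0.19 for spata4 (-0.38 to 0.77). None of the 5 had an unadjusted p under 0.05. Spermatids replicate 2 minus the mean of the other 2 Spermatids arrays was -2.30 for Txndc6, -1.15 for cetn4, -1.17 and -0.96 for ift122 and -1.48 for spata4. Of all clones 0.234%, 3.72%, 3.52%, 5.68% and 1.84% were as low or lower there. This array also had sycp3 at 10.18, against 11.51 and 11.72, the matrix list at 10.19, against 8.62 and 8.64, and ddx4 and piwil2 together at 10.45, against 9.77 and 9.22. Its Sertoli cell list was at 8.60, against 7.68 and 8.25. The Leydig cell list was at 8.26, against 8.23 and 8.57, and the red blood cell list was the lowest, at 7.49 against 8.41 and 7.74. Without Spermatids replicate 2 the direction turned for 4 of the 5 clones, and all 5 differences were positive but not called: 0.57 for Txndc6, 0.34 for cetn4, 0.12 and 0.16 for ift122 and 0.69 for spata4, with adjusted p between 0.19 and 0.828. In Spermatids against Spermatogonia Txndc6 was then at 2.88 (adjusted p = 2.84e-07), cetn4 at 2.20, the ift122 clones at 1.55 and 1.25 and spata4 at 1.63 (adjusted p = 3.93e-05). Whether other cells in that fraction lowered the 5 signals was not tested.

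The change in isolated cells was also set against the change at the matching testis step. The rise of Spermatocytes over Spermatogonia exceeded that of Stage IIIb over Stage IIb by 0.41 for Txndc6, 0.52 for cetn4, 0.36 and 0.17 for ift122 and 0.65 for spata4. None was called, with a lowest unadjusted p of 0.101, where 2.98% of all clones were. These are 269 clones, and 121, 70 and 146 without Stage IIIb replicate 1, 2 and 3 and 165 without Stage IIb replicate 1. The step from Spermatocytes to Spermatids minus that from Stage IIIb to Stage V was -1.36 for Txndc6, -1.0 for cetn4, -0.86 and -0.75 for ift122 and -0.66 for spata4. By limma 0 of 5 and 0 of all clones (0%) were called here, and 518 of all clones had an unadjusted p under 0.05. For the 5 clones the unadjusted p was 0.0199, 0.00877, 0.0112, 0.0175 and 0.123 in this order. Without Spermatids replicate 2 these differences were smaller, at -0.59 for Txndc6 (adjusted p = 0.877), -0.62 for cetn4, -0.47 and -0.43 for ift122 and -0.17 for spata4. Their adjusted p then lay between 0.81 and 0.977.

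The sizes of the changes were compared between clones on the same arrays, in 30 exact permutation tests, two-sided, with Benjamini-Hochberg adjustment over the 30. From Spermatogonia to Spermatocytes 7 of 10 pairs of clones differed. Txndc6 rose more than spata4 by 1.36 (exact p = 0.00216, adjusted p = 0.0216) and more than the ift122 clones by 0.88 and 1.22. Cetn4 rose more than spata4 by 0.91 and more than ift122 clone tcay0011.m.23 by 0.77. From Stage I to Stage V 5 of 10 pairs differed: Txndc6 rose more than each of the other 4 clones, by 0.96 to 1.48 (exact p = 0.0159, the smallest that 4 against 5 arrays allow, adjusted p = 0.0397), and cetn4 more than clone tcay0011.m.23 by 0.47. From Spermatocytes to Spermatids 0 of 10 pairs differed. The lowest exact p was 0.0238 (adjusted p = 0.0549), for ift122 clone 1rt32a14_c_a07 against spata4, at -0.46. This is the smallest exact p that 3 against 6 arrays allow, so the count of 0 does not show that the changes were equal. The sizes depend on low signals, since Spermatogonia were under the array median on 6 of 6 arrays for spata4 and both ift122 clones and on 4 of 6 for Txndc6. With low signals set to the median of their array 19 rather than 12 of the 30 pairs differed. Levels were not compared between clones.

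The ift122 clones gave nearly the same profile. Over the 38 arrays Pearson's r between them was 0.96 and Spearman's rho 0.90, given as a description, since the clones share arrays. With group means removed r was 0.80. They differed in 1 of the 3 comparisons in which changes were set side by side: clone 1rt32a14_c_a07 rose more from Spermatogonia to Spermatocytes, by 0.34 (exact p = 0.00216, adjusted p = 0.0216). The signal of 1rt32a14_c_a07 minus that of tcay0011.m.23 averaged 0.31 ± 0.19 in Spermatocytes and -0.03 ± 0.09 in Spermatogonia (SD, n = 6 each), and the 2 sets of arrays did not overlap. From Stage I to Stage V the clones differed by -0.05 in their change (exact p = 0.46).

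**Figure D4:**
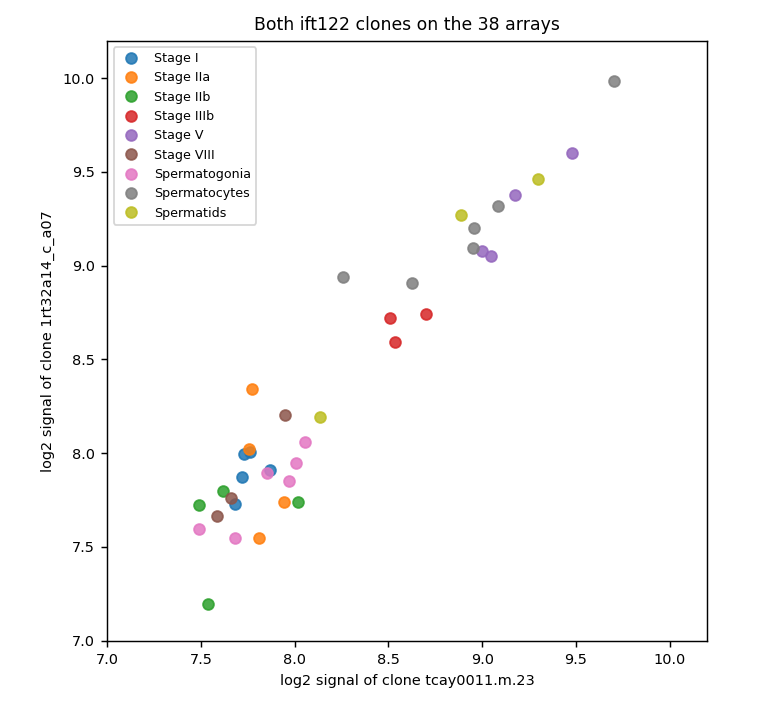
Log2 normalized signal of ift122 clone 1rt32a14_c_a07 (vertical axis) against that of clone tcay0011.m.23 (horizontal axis) on the 38 arrays, coloured by group. Stage IIIb, Stage V, Spermatocytes and 2 of 3 Spermatids arrays lie above and to the right of every array of Stages I, IIa, IIb and VIII and of Spermatogonia. Over all points r is 0.96.

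Correlations between clones are given as a description, since the clones share arrays. Over the 38 arrays r lay between 0.79 and 0.96 for the 10 pairs of clones. With group means removed it was 0.41 at the lowest, 0.59 in the median and 0.80 at the highest, the last between both ift122 clones. The highest between different genes was 0.79, for Txndc6 and spata4. Without Stage VIII replicate 1 and Spermatids replicate 2, a choice made after the values were seen, these were -0.02, 0.34 and 0.72 over 36 arrays, so that much of the shared variation within groups lay on 2 arrays.

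Among the named clones of the array, csn6, a subunit of the COP9 signalosome that acts on ubiquitin ligases, had the profile most often close to these genes. Its clone tcad0006.o.02 was among the 3 most alike for every one of the 5 clones over the 38 arrays, with r of 0.93 for Txndc6, 0.94 for cetn4, 0.89 and 0.91 for ift122 and 0.84 for spata4. It averaged 9.92 ± 0.15 at Stage I, 10.84 ± 0.07 at Stage IIIb, 11.41 ± 0.12 at Stage V and 9.68 ± 0.47 at Stage VIII. A second csn6 clone, 1rt115j05_b_e03, was in the top 3 for spata4, with r of 0.81. The clone of cq032 was in the top 3 for cetn4, with r of 0.92, and for both ift122 clones, with r of 0.88 and 0.89. The other places were held by cetn4 and ift122. A clone of the same gene was left out of its own ranking, and Txndc6, without a platform symbol, was not among the clones searched. Between 477 and 479 clones with a gene name were compared. Of the 8833 clones without a missing value, 18 were more alike to cetn4 than csn6 was, none of them among those with a gene name. Counted in the same way with csn6 clone tcad0006.o.02, there were 54 for Txndc6, 74 and 61 for the ift122 clones and 78 for spata4.

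At the other end, canb1, the regulatory subunit of the phosphatase calcineurin, ran most against Txndc6, cetn4 and ift122 clone tcay0011.m.23, with r of -0.85, -0.92 and -0.84. It averaged 8.24 ± 0.12 at Stage V and 9.11 ± 0.14 at Stage I (SD, n = 4 and 5). Tcp4, a transcriptional coactivator, was lowest for ift122 clone 1rt32a14_c_a07, with r of -0.85, and glut1a, a glucose transporter gene, was lowest for spata4, with r of -0.77.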

How the data were processed

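RNA of 38 samples was reverse-transcribed with an oligo(dT) primer and 33P, and hybridized to nylon cDNA arrays. The authors quantified spots with BZScan, corrected each signal for the amount of spotted cDNA through the ratio to a vector oligonucleotide signal, rescaled it by the median of the vector signals and deposited log2 values made alike in distribution by quantile normalization. The deposited log2 values were used as they stood, for 9024 of 9216 entries, and 190 clones lacked a value on at least 1 array and were fitted on the others. The authors' filter on low vector signal was not applied. All columns were matched to samples by title. Array number and spread limit the precision, and scan dates or batches are not given in the sources used here.

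Limma 3.58.1 (R 4.3.3) was fitted to all clones with 9 group means (lmFit, eBayes), with Benjamini-Hochberg adjustment over 9024 clones. The F-test was called at 0.005, contrasts at 0.05. Changes of clones on the same arrays were compared by exact permutation tests (scipy 1.17.1). The method was also run on simulated data with independent normal noise around the mean of each clone. Those data held no arrays that stood apart, so the run does not cover this feature of the real arrays. Alternatives were low signals set to the median of their array, dim clones left out, array weights, a replicate block, median centring, renewed quantile normalization, a variance trend, only the groups compared, and each array left out. Gene symbols came from the platform annotation, with 1 symbol for 677 clones. Named genes were the 5 clones, the 3 named clones most alike to each and the 1 least alike, and cell type markers. The members and lists were chosen with earlier results of these data known.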

Additional observations from a re-analysis of the deposited data

Results flagged for a closer look

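In 30 groups, 5 clones in 6 groups of 4 to 6 arrays, 1 array of a group was tested for a gap to the nearest of the others that is large beside the range of the group. Chance flags about 1 group in 20. Cetn4 in Spermatogonia replicate 6 was at 9.35, with the nearest array at 8.70 and a gap of 0.638 of the range. Ift122 clone 1rt32a14_c_a07 in Stage IIb replicate 1 was at 7.20, with the nearest array at 7.72 and a gap of 0.879 of the range. Groups of 3 arrays, among them Stage VIII and Spermatids, were not tested in this way.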

How the results depend on the processing

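No value of a single clone changed direction past the threshold. Of 615 values with 1 array left out 613 kept their side of the threshold, and of 420 under other settings 408 did. These 420 include median centring and renewed quantile normalization, which could hardly change a value. The deposited values were already quantile normalized, and every array had the same median. With low signals set to the median of their array, 2 of 5 clones rather than 4 were called in Stage IIIb against Stage IIb, and 19 rather than 12 pairs of clones differed in their change. In Stage V against Stage IIIb, 5 clones were called with array weights and 3 with only the groups compared, rather than 0. Leaving out 1 array gave 3 to 4 clones in Stage IIIb against Stage IIb, 4 to 5 in Spermatids against Spermatogonia and 6 to 13 differing pairs, 6 without any 1 array of Stage I or Stage V, where fewer arrays allow no smaller exact p. The other counts of the 5 clones were the same each time. Over all clones Stage IIb against Stage I had 21 calls, and 6 and 8 without Stage I replicates 1 and 2 and 5, 7 and 12 without Stage IIb replicates 1, 3 and 4. The step from Spermatocytes to Spermatids minus that from Stage IIIb to Stage V had 0, and 9, 1 and 1 without Spermatids replicate 1, 2 and 3. The median correlation of the clones within groups was 0.34 without the 2 arrays that stood apart.

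Taken over all groups, replicate numbers showed no pairing of the samples. Arrays with the same number in different groups correlated at -0.002 on average after group means were removed, with a range of -0.397 to 0.557. Of the 38 arrays 9 had their best match among those with their number. An average over all groups cannot exclude pairing between single groups, such as Spermatocytes and Spermatids, which was not tested separately. With the replicate number as a block, 5 clones passed the F-test, 4 were called in Stage IIIb against Stage IIb and 5 in Spermatocytes against Spermatogonia, and no count of the 5 clones moved. Of 9024 clones, 3648, 604 and 2347 passed in the same order, the contrasts counted in either direction. Over all clones the block gave 9 calls rather than 21 in Stage IIb against Stage I and 2 rather than 6 in Spermatids against Spermatocytes.

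Over all clones array weights gave 6118 calls rather than 3989 in the F-test, 125 rather than 21 in Stage IIb against Stage I, 2005 rather than 635 in Stage IIIb against Stage IIb, 555 rather than 0 in Stage V against Stage IIIb, 4655 rather than 2784 in Stage V against Stage I, 3546 rather than 2189 in Stage VIII against Stage I, 3929 rather than 2402 in Spermatogonia against Stage I, 1083 rather than 1926 in Spermatids against Spermatogonia and 1 rather than 6 in Spermatids against Spermatocytes. Low signals set to that median gave 70 in Stage IIb against Stage I, 16 in Stage V against Stage IIIb, 1606 rather than 2428 in Spermatocytes against Spermatogonia, 47 in Spermatids against Spermatocytes and 2 rather than 0 in the difference of that step from Stage V against Stage IIIb. Only the groups compared gave 9, 151, 856 and 0 in Stage IIb against Stage I, Stage V against Stage IIIb, Spermatids against Spermatogonia and Spermatids against Spermatocytes. The causes were not tested.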
